A study of Rattus norvegicus with 20 samples.

Results

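Immediate early transcription factors were followed in the liver of male Harlan Sprague-Dawley rats that had been gavaged with isodecyl diphenyl phosphate (IDDP), an organophosphate ester, in corn oil. The members are 7 genes, Egr1, Fos, Jun, Junb, Atf3, Ier2 and Klf6, taken as every probe set that the array annotation maps to exactly 1 of those symbols. This gave 12 probe sets (3 each for Jun and Klf6, 2 for Fos and 1 for each of the others) of the 31042 tested, and 7 of the 14217 gene symbols measured. The dosed groups held 3 rats each at 66, 132, 263.6, 527.1 and 1054.2 mg/kg per day, and the vehicle group held 5 rats given corn oil alone. All groups shared the strain, the sex, the gavage, the oil and the schedule of 4 daily doses, with liver taken on day 5. Each rat gave 1 Affymetrix array, made with 100 ng of RNA from pieces of the left liver lobe, so that all cell types of the lobe were read together. The age of the rats and the hours between the last dose and dissection are not stated in the labels. Values are log2 intensities, on which 1 unit is a doubling.

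Immediate early genes are transcribed within minutes of a growth factor, hormone or stress signal without new protein synthesis, and their RNAs decay quickly. Many are switched on by ERK kinase through serum response factor and its ELK partners, which bind CArG boxes, or by cyclic AMP and CREB, which binds the cyclic AMP response element. In rodent liver they are known for their fast induction after partial hepatectomy and in acute injury. Egr1 encodes a zinc finger factor. Fos, Jun and Junb encode subunits of the AP-1 dimer, and Atf3 encodes a stress-induced factor of the ATF family that can pair with Jun proteins. Ier2 encodes a small nuclear protein, and Klf6 a Kruppel-like zinc finger factor.

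Egr1 had the largest change of the 7 genes, and over all dose groups together Ier2 and Junb were high in the rats high in Egr1. For this reason the stretches of 250 bases before the transcription start of Egr1, Ier2 and Junb are shown. They come from RefSeq on rat assembly GRCr8, 5′ to 3′ on the gene's strand, at chr18:26736828-26737077 (plus strand) for Egr1, chr19:40399123-40399372 (plus strand) for Ier2 and chr19:40080876-40081125 (plus strand) for Junb. Capitals mark CArG boxes and the 5 bases TGACG, or CGTCA on the other strand, that form the core of the cyclic AMP response element.
Egr1: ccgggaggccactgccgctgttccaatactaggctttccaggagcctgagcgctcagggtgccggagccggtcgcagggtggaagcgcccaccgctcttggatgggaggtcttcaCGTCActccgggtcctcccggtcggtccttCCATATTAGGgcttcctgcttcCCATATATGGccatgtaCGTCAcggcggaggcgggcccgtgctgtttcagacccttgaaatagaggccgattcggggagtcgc
Ier2: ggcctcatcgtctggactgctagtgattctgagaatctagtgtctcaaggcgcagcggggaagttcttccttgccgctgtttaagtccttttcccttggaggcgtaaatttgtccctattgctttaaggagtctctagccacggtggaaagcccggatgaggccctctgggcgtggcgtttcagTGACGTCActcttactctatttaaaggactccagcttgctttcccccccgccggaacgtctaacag
Junb: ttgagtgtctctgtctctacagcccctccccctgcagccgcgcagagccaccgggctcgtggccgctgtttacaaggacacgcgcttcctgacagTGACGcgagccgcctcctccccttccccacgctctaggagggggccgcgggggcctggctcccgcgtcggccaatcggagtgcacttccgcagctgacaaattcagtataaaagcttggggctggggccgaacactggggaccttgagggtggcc
The Egr1 stretch held 2 CArG boxes, CCATATTAGG at 105 to 96 bases and CCATATATGG at 83 to 74 bases before the start, and 2 copies of the core. The Ier2 stretch held the complete element TGACGTCA at 66 to 59 bases before the start, which contains the core on both strands, and no CArG box. Junb held 1 copy of the core and a TATAAA at 49 to 44 bases before the start. Klf6, whose promoter was also matched, held 1 CArG box, CCTTTAATGG, at 201 to 192 bases before the start and no copy of the core. Fos, Jun and Atf3 were not matched. In 33469 RefSeq promoters of 300 bases (250 before and 50 after the start), searched on both strands, at least 1 CArG box was present in 1.64%, at least 2 in 0.0209%, the core in 21.2%, TGACGTCA in 1.83% and TATAAA in 14.2%. These matches describe the letters of the windows only.

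Egr1 was the member with the largest change. The vehicle rats had log2 levels of 9.90, 10.15, 10.06, 10.61 and 9.47, and the rats at 66 mg/kg had 9.68, 10.11 and 10.45. At 132 mg/kg the values were 10.47, 9.0 and 8.58, and at 263.6 mg/kg they were 9.64, 9.73 and 8.46. At 527.1 mg/kg they were 7.57, 7.74 and 8.43, and at 1054.2 mg/kg 8.59, 7.57 and 7.64. Every rat at the 2 highest doses lay below every vehicle rat, the 66 mg/kg group lay within the vehicle range, and each of the 2 middle groups held rats both inside and below that range.

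The mean of Egr1 was 7.91 ± 0.46 at 527.1 mg/kg (SD, n = 3) and 10.04 ± 0.41 in vehicle rats (SD, n = 5), 4.37-fold lower (log2 change -2.13 ± 0.37 SE, limma adjusted p = 0.00476). At 1054.2 mg/kg the mean was 7.94 ± 0.57 (SD, n = 3) and Egr1 was 4.30-fold lower than in vehicle rats (-2.10 ± 0.37, adjusted p = 0.00266). An exact two-sided permutation test over the 56 arrangements of the rats gave p = 0.0357 at each of these doses, the smallest that this test can give. The 2 highest doses did not differ from each other by the test (0.03 ± 0.42, 1054.2 minus 527.1 mg/kg, 95% interval -0.85 to 0.90, adjusted p = 0.998). The changes at 66 mg/kg (0.04 ± 0.37, adjusted p = 1), 132 mg/kg (-0.69 ± 0.37, adjusted p = 0.39) and 263.6 mg/kg (-0.76 ± 0.37, adjusted p = 0.432) did not pass. Ordered by mean, the groups ran from 527.1 (7.91) through 1054.2 (7.94), 263.6 (9.28), 132 (9.35) and vehicle (10.04) to 66 mg/kg (10.08), and the values of every neighbouring pair in that order overlapped. The slope on dose rank, over ranks 0 (vehicle) to 5 (1054.2 mg/kg), was -0.47 ± 0.07 per step (adjusted p = 0.000153). In bulk liver, fewer cells of a type and less RNA per cell cannot be told apart.

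The ratio of 3′ to 5′ signal of the control transcripts beta-actin and GAPDH, larger where RNA is more degraded, was highest at 132 mg/kg, at 2.31 ± 0.89 log2 (SD, n = 3), with 3.25 in replicate 2. It was 1.69 ± 0.10 at 527.1 mg/kg and 1.68 ± 0.11 at 1054.2 mg/kg (SD, n = 3 each), against 1.64 ± 0.27 in vehicle rats (SD, n = 5). The Egr1 change at 132 mg/kg was -1.25 without replicate 1 (adjusted p = 0.21), -0.51 without replicate 2 (0.851) and -0.30 without replicate 3 (0.671). At 263.6 mg/kg it ran from -0.99 to -0.36 over the leave-one-out fits, with the smallest size without 263.6 mg/kg replicate 3. Ratios of 2.47, 2.17 and 2.04 came from replicate 2 at 263.6, replicate 1 at 132 and replicate 2 at 66 mg/kg. At ratios of 3.25, 2.47 and 2.17, Klf6 1387060_at had 8.43, 8.56 and 8.37. At 1.74, in 1054.2 mg/kg replicate 2, it had 8.88. At 3.25, 2.17 and 2.04, Jun 1389528_s_at (7.98, 7.89 and 7.98) and 1374404_at (7.23, 7.23 and 7.35) lay below their vehicle ranges. At 2.47 they had 8.70 and 7.87. Whether the ratio shifted Klf6 or Jun levels was not tested.

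**Figure D1:**
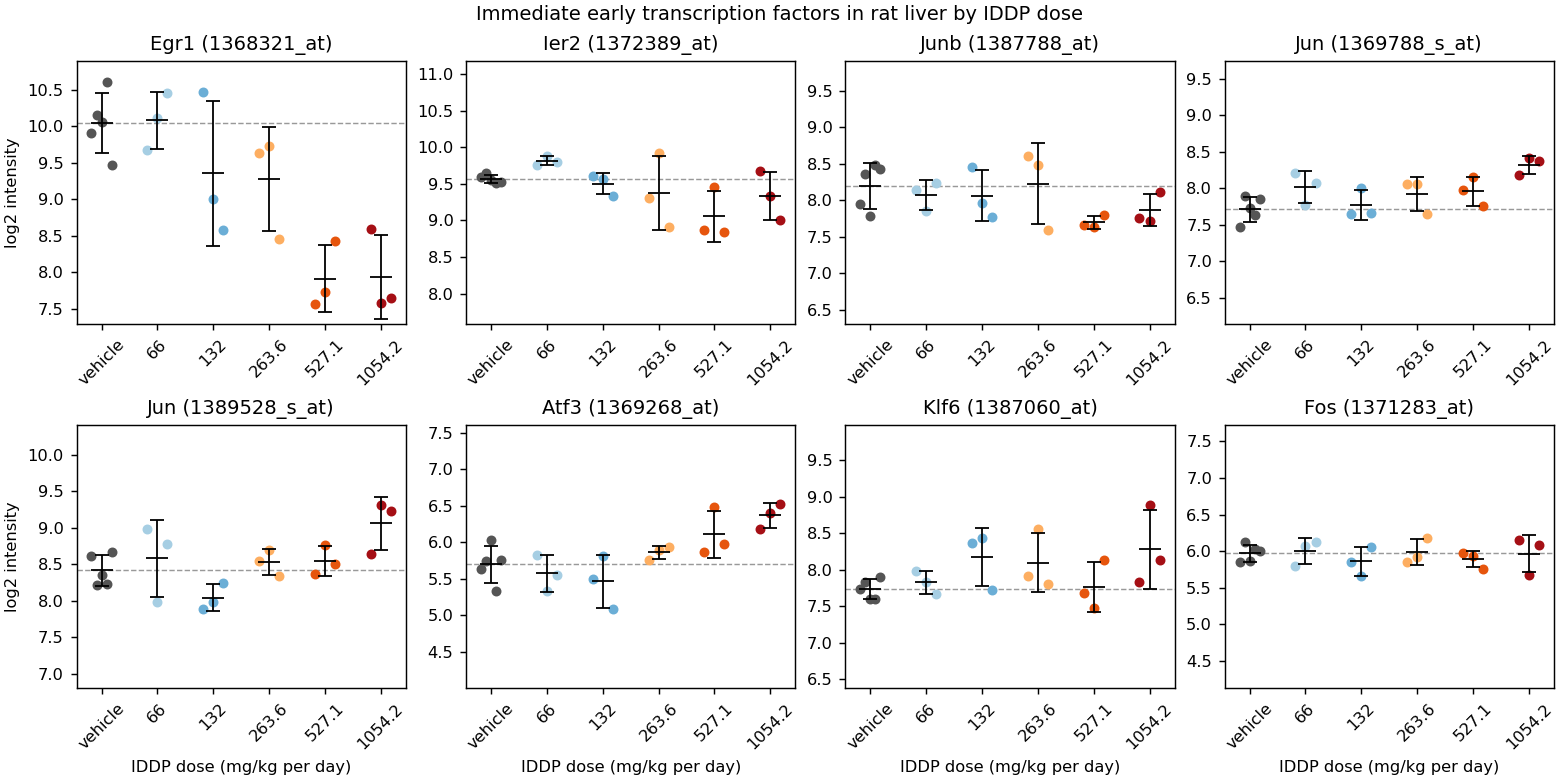
Log2 intensity of 8 of the 12 probe sets in each rat (points), with the group mean and SD (bars), for vehicle and 5 daily doses of IDDP in mg/kg; the dashed line is the vehicle mean, and each panel spans the same number of log2 units. Egr1 lies at 7.57 to 8.59 in the 6 rats at the 2 highest doses and at 9.47 to 10.61 in the 5 vehicle rats, while Fos stays near its vehicle mean.

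Of the AP-1 and ATF members, Atf3 and Jun, with 1 of the 3 Jun probe sets, were higher at the highest dose. Jun, read by 1369788_s_at, had 8.18, 8.41 and 8.37 in the rats at 1054.2 mg/kg, against 7.47, 7.89, 7.73, 7.63 and 7.85 in vehicle rats. The groups did not overlap, and Jun was 1.52-fold higher (0.61 ± 0.13, adjusted p = 0.0137). The call was lost without 1054.2 mg/kg replicate 2 (adjusted p = 0.0775) or 3 (0.08). The other Jun probe sets had changes of 0.64 ± 0.19 (1389528_s_at, adjusted p = 0.0717) and 0.23 ± 0.20 (1374404_at, adjusted p = 0.664), neither past the threshold. The first of these passed without 1054.2 mg/kg replicate 1 (adjusted p = 0.023) and in a fit of these 2 groups alone (0.0483). Across the 20 rats, Pearson's r between the 3 Jun probe sets was 0.49, 0.72 and 0.86, a description of probe sets that share the same arrays.

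Atf3, a dim probe set with a mean below the median of all probe sets, had 6.19, 6.40 and 6.52 at 1054.2 mg/kg, against 5.64, 5.74, 6.03, 5.33 and 5.76 in vehicle rats. Every rat at this dose was above every vehicle rat, a 1.59-fold higher level (0.67 ± 0.17, adjusted p = 0.0324). At 527.1 mg/kg the rats had 5.87, 6.47 and 5.98, overlapping the vehicle range, and the change was 0.41 ± 0.17 (adjusted p = 0.28). The call at 1054.2 mg/kg was lost without vehicle replicate 1 (adjusted p = 0.0678), 2 (0.0562) or 4 (0.086), or without 1054.2 mg/kg replicate 2 (0.119) or 3 (0.17).

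Junb had 7.66, 7.64 and 7.81 at 527.1 mg/kg and 7.76, 7.71 and 8.12 at 1054.2 mg/kg, against 7.94, 8.36, 7.78, 8.48 and 8.42 in vehicle rats. Both dosed groups overlapped the vehicle range, and the changes were -0.50 ± 0.21 (adjusted p = 0.279) at 527.1 mg/kg and -0.34 ± 0.21 (adjusted p = 0.498) at 1054.2 mg/kg. Fos, the usual partner of Jun in AP-1, was dim on both of its probe sets. With 1371283_at it had 6.15, 5.67 and 6.08 at 1054.2 mg/kg, against 5.84 to 6.12 in the 5 vehicle rats, a change of -0.01 with a 95% interval of -0.26 to 0.25 (adjusted p = 0.993). With 1375043_at the change was -0.30 (interval -0.77 to 0.16, adjusted p = 0.593), and r between the 2 Fos probe sets across rats was 0.03.

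Ier2 had 8.87, 9.46 and 8.84 at 527.1 mg/kg and 9.67, 9.34 and 9.01 at 1054.2 mg/kg, against 9.59, 9.65, 9.55, 9.52 and 9.52 in vehicle rats. The vehicle rats lay within 0.13 log2 units of each other. All 3 rats at 527.1 mg/kg were below them, yet the change of -0.51 ± 0.18 did not pass (adjusted p = 0.179), and the exact two-sided permutation p was 0.0357. At 1054.2 mg/kg the groups overlapped (-0.23 ± 0.18, adjusted p = 0.628). At 66 mg/kg the rats had 9.76, 9.88 and 9.80, above every vehicle rat, with a change of 0.25 ± 0.18 (adjusted p = 1).

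Klf6 passed at no dose with any of its 3 probe sets. At 1054.2 mg/kg its changes were 0.54 (1387060_at, 95% interval 0.09 to 0.99, adjusted p = 0.209), 0.23 (1388986_at, interval -0.05 to 0.52, adjusted p = 0.463) and 0.28 (1395557_at, interval 0.02 to 0.54, adjusted p = 0.286). The dim 1395557_at had 4.43, 4.80 and 4.52 at that dose, against 4.28, 4.40, 4.10, 4.34 and 4.39 in vehicle rats, with no overlap. Values of 1387060_at were 7.83, 8.88 and 8.13, with the lowest of them inside the vehicle range of 7.61 to 7.89. Across the 20 rats r between the Klf6 probe sets was 0.39, 0.44 and 0.43.

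Counted over the 12 probe sets, 0 were called at 66, 132 or 263.6 mg/kg by limma, against 0.00644%, 0.0677% and 0.428% of all probe sets at those doses. At an unadjusted p under 0.05 there was 1 of 12 at each dose, against 3.24%, 14.9% and 11.9% of all probe sets. At 527.1 mg/kg 1 of 12 was called, Egr1, against 1.68% called over all probe sets and 0.483% called lower, and 4 of 12 had an unadjusted p under 0.05, against 13.6% of all. At 1054.2 mg/kg 3 of 12 were called, 2 higher and 1 lower, against 3.30% of all probe sets, 1.86% higher and 1.44% lower, and 6 of 12 had an unadjusted p under 0.05, against 15.1% of all. The count of 3 was 1 without 1054.2 mg/kg replicate 2 and also without replicate 3. The median change of the 12 was 0.23 at 1054.2 mg/kg and -0.01 at 527.1 mg/kg, while the median of all probe sets was -0.01 at both.

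Groups did not overlap for 2 of the 12 probe sets at 527.1 mg/kg (Egr1 and Ier2) and for 4 at 1054.2 mg/kg (Egr1, Jun 1369788_s_at, Atf3 and Klf6 1395557_at). Over all probe sets this share was 11.9% and 12.4%. At 66 mg/kg, where Ier2 did not overlap, it was 4.59%. Between the 2 highest doses, 0 of 12 were called by limma, against 0.0129% of all probe sets, and 4 of 12 had an unadjusted p under 0.05, against 6.08% of all. For 1 of 12 (Jun 1369788_s_at) these groups did not overlap, against 9.95% of all. All 12 changes in that contrast were above 0, with a median of 0.22, against -8e-05 over all probe sets. Of the 12, 3 each are for Jun and Klf6 and 2 for Fos, so they are not 12 separate genes. Egr1 changed by 0.03 ± 0.42.

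The slope on dose rank was called for 3 of 12, against 5.05% of all probe sets, 2.97% upward and 2.08% downward, and 7 of 12 had an unadjusted p under 0.05, against 16.7% of all. Egr1 sloped down, as given above. Atf3 sloped up by 0.14 ± 0.03 per step (adjusted p = 0.0167) and Jun 1369788_s_at by 0.09 ± 0.03 (adjusted p = 0.0455). Without 1054.2 mg/kg replicate 3 the count was 1, since Jun (0.132) and Atf3 (0.0607) did not pass. The Jun slope also lost its call without any single vehicle rat (limma adjusted p 0.0504 to 0.11). The same held without 1054.2 mg/kg replicate 1 (0.0725) or 2 (0.127). It was lost as well without 66 mg/kg replicate 2, 263.6 mg/kg replicates 1 or 2, or 527.1 mg/kg replicates 1 or 2.

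**Figure D2:**
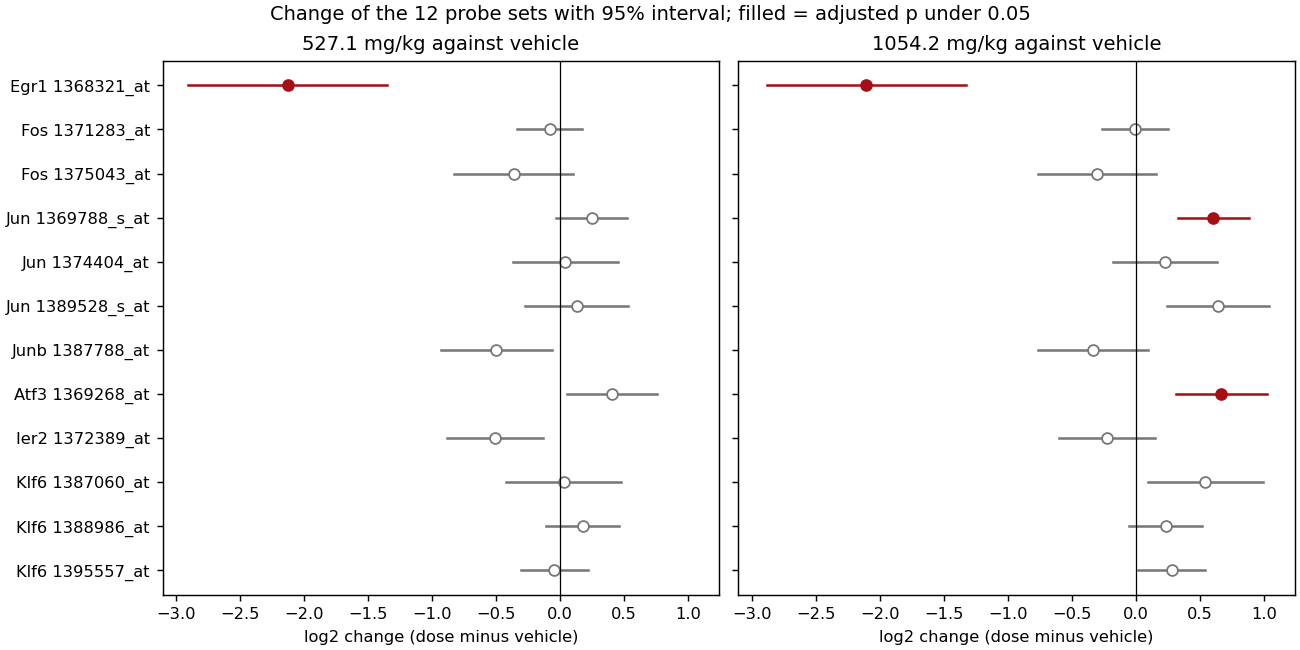
Log2 change of each of the 12 probe sets against vehicle at 527.1 and 1054.2 mg/kg, with 95% intervals from the fit; filled red points passed the adjusted threshold of 0.05. Egr1 sits at -2.13 and -2.10, and Jun 1369788_s_at (0.61) and Atf3 (0.67) pass at the higher dose.

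For 8 of the 12 probe sets, the spread between rats of the same dose lay at or above the 89 percentile of all probe sets. The cut of 89 is the percentile of Atf3, the lowest of these 8. The residual SD of Egr1 within dose groups was 0.598 log2 units, above that of 99.5% of all probe sets, whose median was 0.160. Percentiles of 95.5 for Klf6 1387060_at, 94.7 for Junb, 93.6 and 93.1 for Jun 1374404_at and 1389528_s_at and 91.1 for Ier2 followed, and the dim Fos 1375043_at was at 96.1 and Atf3 at 89. The other 4 were at lower percentiles, 73.9 for Klf6 1388986_at, 71.1 for Jun 1369788_s_at, 63 for Klf6 1395557_at and 59.3 for Fos 1371283_at, whose SD was 0.173. Against only the probe sets at or above the median level, percentiles were lower. They were 99.2 for Egr1, 93 for Klf6 1387060_at, 91.9 for Junb and 86.7 for Ier2. For Jun 1374404_at and 1389528_s_at they were 90.3 and 89.5.

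**Figure D3:**
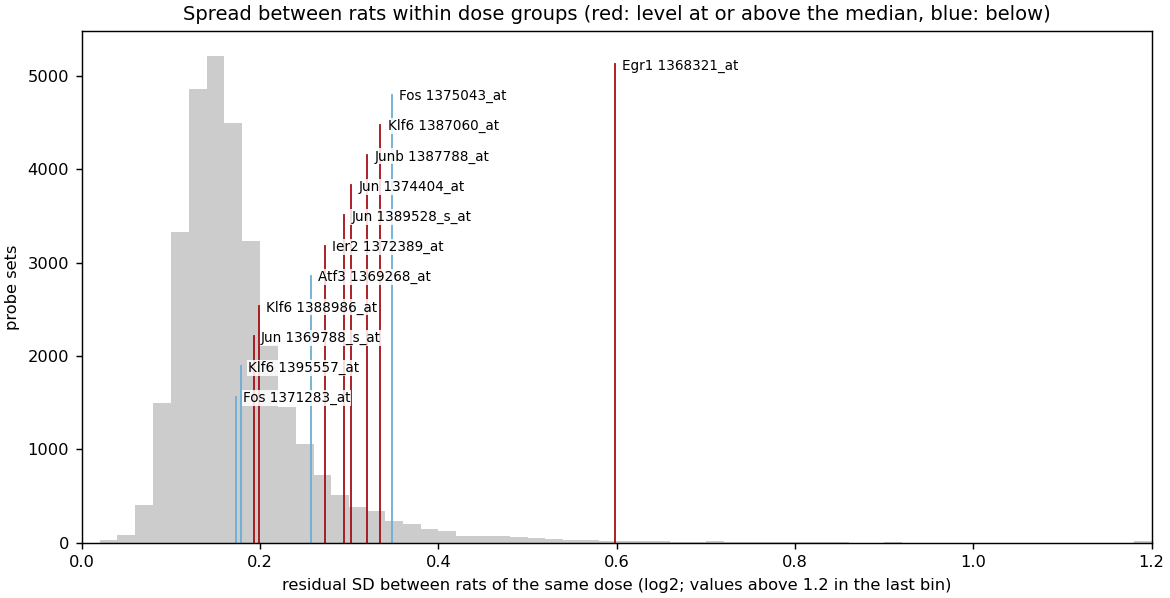
Residual SD between rats of the same dose (x axis, log2) for all 31042 probe sets (grey histogram, y axis, number of probe sets), with the 12 probe sets of the 7 genes as lines, red for a level at or above the median of all probe sets and blue for a level below it; line heights carry no value. Egr1 lies at 0.598, in the right tail, and Fos 1371283_at at 0.173, near the bulk.

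Levels of the members were compared with each other across the 20 rats, taking the brightest probe set of each gene, in 21 pairs with permutation p-values from 100000 resamples. These were 1389528_s_at for Jun, 1387060_at for Klf6 and the dim 1371283_at for Fos. The Jun probe set called at 1054.2 mg/kg, 1369788_s_at, was thus not the probe set used for the pairs. Egr1 correlated with Ier2 (r = 0.68, p = 0.00097, adjusted p = 0.0113; rho = 0.69, p = 0.00127, adjusted p = 0.0134), and r was 0.64 without the 2 rats farthest from the Egr1 median. It correlated with Junb (r = 0.66, p = 0.00219, adjusted p = 0.0115; rho = 0.66, p = 0.00191, adjusted p = 0.0134; 0.59 without the 2 farthest rats) and, inversely, with Atf3 (r = -0.66, p = 0.00161, adjusted p = 0.0113; rho = -0.68, p = 0.00129, adjusted p = 0.0134; -0.65 without them). Over all dose groups together, rats with little Egr1 also had less Ier2 and Junb and more Atf3. The rats were shuffled across dose groups here, so differences between doses enter both r and p.

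Part of each of these values lies between dose groups. For deviations from the dose-group means, tested by permutation within groups, r was 0.46 for Ier2 (p = 0.0986, adjusted p = 0.432), 0.58 for Junb (p = 0.0438, adjusted p = 0.432) and -0.20 for Atf3 (p = 0.546, adjusted p = 0.791), so none of the 3 relations held within dose groups after adjustment. Of the 21 pairs, 5 passed over all rats and 0 within dose groups, with 2 at an unadjusted p under 0.05. The other pairs that passed over all rats were Jun with Atf3 (r = 0.67, p = 0.00145, adjusted p = 0.0113; rho = 0.58, p = 0.00761, adjusted p = 0.04; r = 0.48 without the 2 farthest rats, 0.39 within groups with p = 0.123) and Fos with Klf6. For Fos with Klf6, r was -0.57 (p = 0.00832, adjusted p = 0.0349; rho = -0.48, p = 0.0324, adjusted p = 0.136), but -0.30 without the 2 farthest rats and -0.71 within groups (p = 0.0117, adjusted p = 0.246). Egr1 and Fos had r = 0.09.

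**Figure D4:**
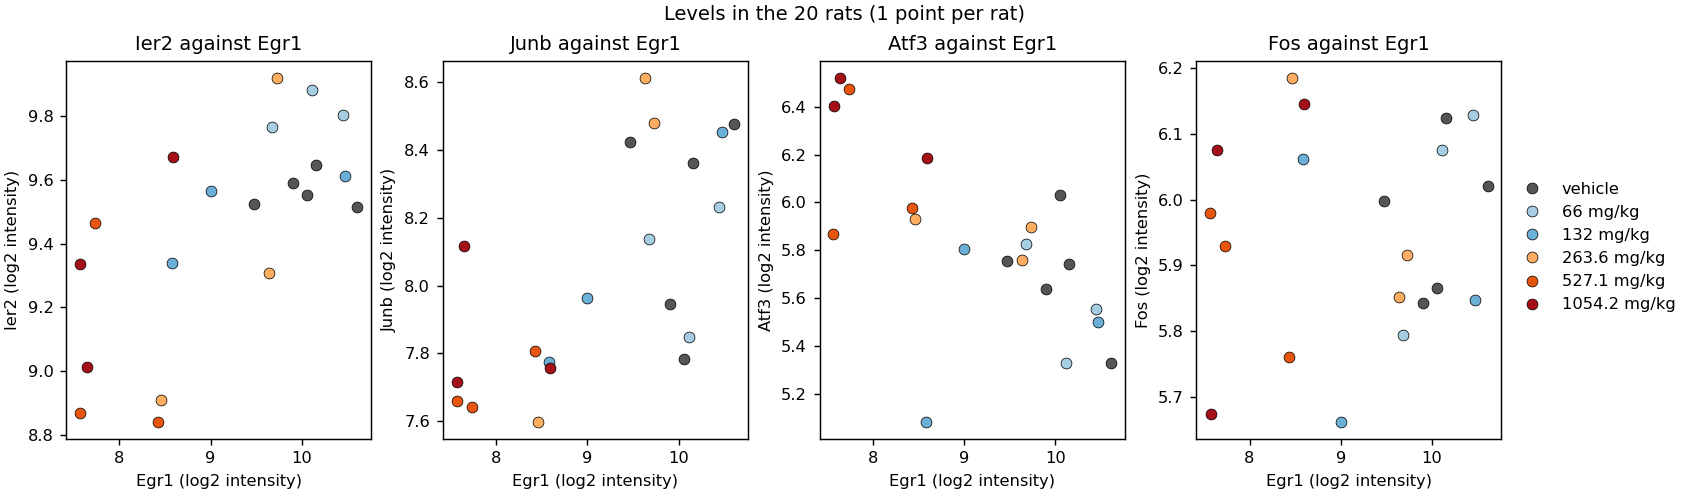
Log2 levels of Ier2, Junb, Atf3 and Fos (y axes) against Egr1 (x axis) in the 20 rats, coloured by dose. The rats at 527.1 and 1054.2 mg/kg lie at the left of each panel; r is 0.68 for Ier2, 0.66 for Junb, -0.66 for Atf3 and 0.09 for Fos.

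The genes whose levels across the 20 arrays were most like Egr1, out of 12281 candidates at or above the median level, were Sdc4 (r = 0.88), a cell-surface heparan sulfate proteoglycan, Glipr1 (0.86), the ceramidase gene Acer2 (0.85), Cfap20 (0.84), Arhgap25 (0.84) and Cdkn1a (0.83), which encodes the cell-cycle inhibitor p21. Within dose groups r was 0.57, 0.76, 0.68, 0.56, 0.53 and 0.41 in that order. Most like Junb were the chemokine gene Cxcl1 (0.83), the fibrinogen gene Fga (0.81) and Acer2 (0.78), and most like Atf3 were Cln8 (0.85), Dpy19l3 (0.82) and Zdhhc14 (0.81). For Jun they were the heat shock gene Hsph1 (0.79), Dip2a (0.78) and Zpr1 (0.78), for Ier2 Zfp764l1 (0.81), Nsdhl (0.74) and Pla1a (0.73), for Klf6 Rwdd4 (0.89), Srek1ip1 (0.87) and Onecut2 (0.86), and for Fos Sypl2 (0.81), Senp8 (0.78) and Cacna1i (0.77). These values describe arrays that share dose groups, and carry no test. Neither they nor the pairs were adjusted for the ratio of 3′ to 5′ signal. Jun, Klf6 and Fos were read here from the same brightest probe sets as in the pairs.

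Other genes of the pathways were read from lists, each gene from its brightest probe set. Of 53 other immediate early genes at 1054.2 mg/kg, 4 were higher, 5 lower and 44 not called, with a median change of -0.03. Over all probe sets, 1.86% were called higher and 1.44% lower at this dose. Dim probe sets made up 16 of the 53. The growth factor-responsive oncogene Myc was 9.16 ± 0.47 at 1054.2 mg/kg (SD, n = 3) and 7.22 ± 0.46 in vehicle rats (SD, n = 5), a change of 1.94 ± 0.24 (adjusted p = 7.64e-05), and it was also higher at 66 mg/kg (1.83 ± 0.24, adjusted p = 0.00418), a call lost without 66 mg/kg replicate 1 (0.0995). Myc passed neither at 132 mg/kg (0.64, adjusted p = 0.235), 263.6 mg/kg (0.44, adjusted p = 0.496) and 527.1 mg/kg (0.68, adjusted p = 0.177) nor in the slope (adjusted p = 0.178). Ccn1, a matricellular protein gene, rose by 0.90 ± 0.15 (adjusted p = 0.00167), and Maff, a small Maf factor, by 0.80 ± 0.20 (adjusted p = 0.0307), both dim. The kinase gene Sgk1 (-1.38 ± 0.35, adjusted p = 0.0324), the repressor gene Nfil3 (-0.86 ± 0.20, adjusted p = 0.0203) and the cyclic AMP response gene Crem (-0.75 ± 0.17, adjusted p = 0.0172) fell, although 0 of the 5 other Crem probe sets were called. Myc and Ccn1 kept their calls at 1054.2 mg/kg with each of the 8 rats of that comparison left out.

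The other 4 named genes did not. Maff lost its call without vehicle replicates 1, 2, 3 or 4 or 1054.2 mg/kg replicate 3 (adjusted p up to 0.242), and Sgk1 without vehicle replicates 2 or 3 or any 1054.2 mg/kg rat (up to 0.122). Nfil3 lost it without vehicle replicate 4 or any 1054.2 mg/kg rat (up to 0.0897), and Crem without 1054.2 mg/kg replicates 1 or 3 (up to 0.106). At 527.1 mg/kg 1 of the 53 was higher, Csrnp1 (0.54), and 2 were lower, Nfil3 (-0.97) and Crem (-0.73). Over all probe sets 1.68% were called at that dose, and 0.483% were called lower. The Csrnp1 call was lost without 527.1 mg/kg replicates 2 or 3 (up to 0.0787), that of Nfil3 without 527.1 mg/kg replicate 3 (0.108), and that of Crem without any rat of the comparison but vehicle replicate 5 (up to 0.129). On dose rank, the slope of Csrnp1 was 0.14 ± 0.02 per step (limma adjusted p = 5.27e-05). In that slope 3 of the 53 were called upward and 5 downward, against 2.97% and 2.08% of all probe sets.

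Upstream, none of 10 measured genes of serum response factor and its partners was called by limma at 1054.2 mg/kg, and the largest change was in the ternary complex factor Elk3 (-0.49 ± 0.19, adjusted p = 0.191). Of 25 genes for EGF family ligands, receptors and ERK feedback, 8 of them dim, 0 were higher and 2 lower, against 1.86% and 1.44% of all probe sets. Egfr, the receptor for EGF, was 10.94 ± 0.15 at 1054.2 mg/kg (SD, n = 3) and 12.10 ± 0.13 in vehicle rats (SD, n = 5), 2.25-fold lower (-1.17 ± 0.13, adjusted p = 2.84e-05), and it was also lower at 527.1 mg/kg (-0.64, adjusted p = 0.0156), a call lost without 527.1 mg/kg replicates 1 or 2 (up to 0.0921). Of the 2 other Egfr probe sets, 1 was called at 1054.2 mg/kg. The ligand gene Egf fell by 0.72 ± 0.18 (adjusted p = 0.0321), a call lost without vehicle replicates 1, 2 or 4 or 1054.2 mg/kg replicates 1 or 3 (up to 0.207). On dose rank, 1 of the 10 genes of serum response factor and its partners was called downward, Fhl2 (limma adjusted p = 0.0427). Of the 25, 3 were called downward: Egfr (0.000888), Egf (0.0293) and the dim Hgf (0.0283). No gene of either list was called upward. Over all probe sets, 2.08% were called downward and 2.97% upward.

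Among 13 AP-1 and ATF dimer partners, 4 of them dim, 1 was higher at 1054.2 mg/kg, against 1.86% of all probe sets. It was the stress-response factor gene Atf4 (0.53 ± 0.13, adjusted p = 0.0223), which lost its call without vehicle replicates 1 or 2 or 1054.2 mg/kg replicate 3 (up to 0.162). Atf4 was also called higher at 527.1 mg/kg (0.51, limma adjusted p = 0.0449), where 1.68% of all probe sets were called. That call was lost in 6 of 8 leave-one-out fits (up to 0.203). Among 19 co-repressors of Egr1 and reported targets of Egr1 or AP-1, 5 of them dim, 1 was lower at 1054.2 mg/kg, against 1.44% of all probe sets. Cdkn1a was 8.17 ± 0.08 at 1054.2 mg/kg (SD, n = 3) and 10.31 ± 0.44 in vehicle rats (SD, n = 5), a change of -2.14 ± 0.24 (adjusted p = 2.57e-05), and -1.40 at 527.1 mg/kg (adjusted p = 0.00371). The other Cdkn1a probe set, also called at 1054.2 mg/kg, changed by -0.75. On dose rank, 2 of the 13 dimer partners were called upward, Atf4 (limma adjusted p = 0.00144) and Mafg (0.0495), and 0 downward. Of the 19 co-repressors and targets, 1 was called upward, Pdgfa (0.0352). Another 2 were called downward, Cdkn1a (0.000147) and the co-repressor gene Nab2 (0.0346). Over all probe sets, 2.97% were called upward and 2.08% downward. The median changes of these 4 lists at 1054.2 mg/kg lay between -0.10 and -0.02.

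**Figure D5:**
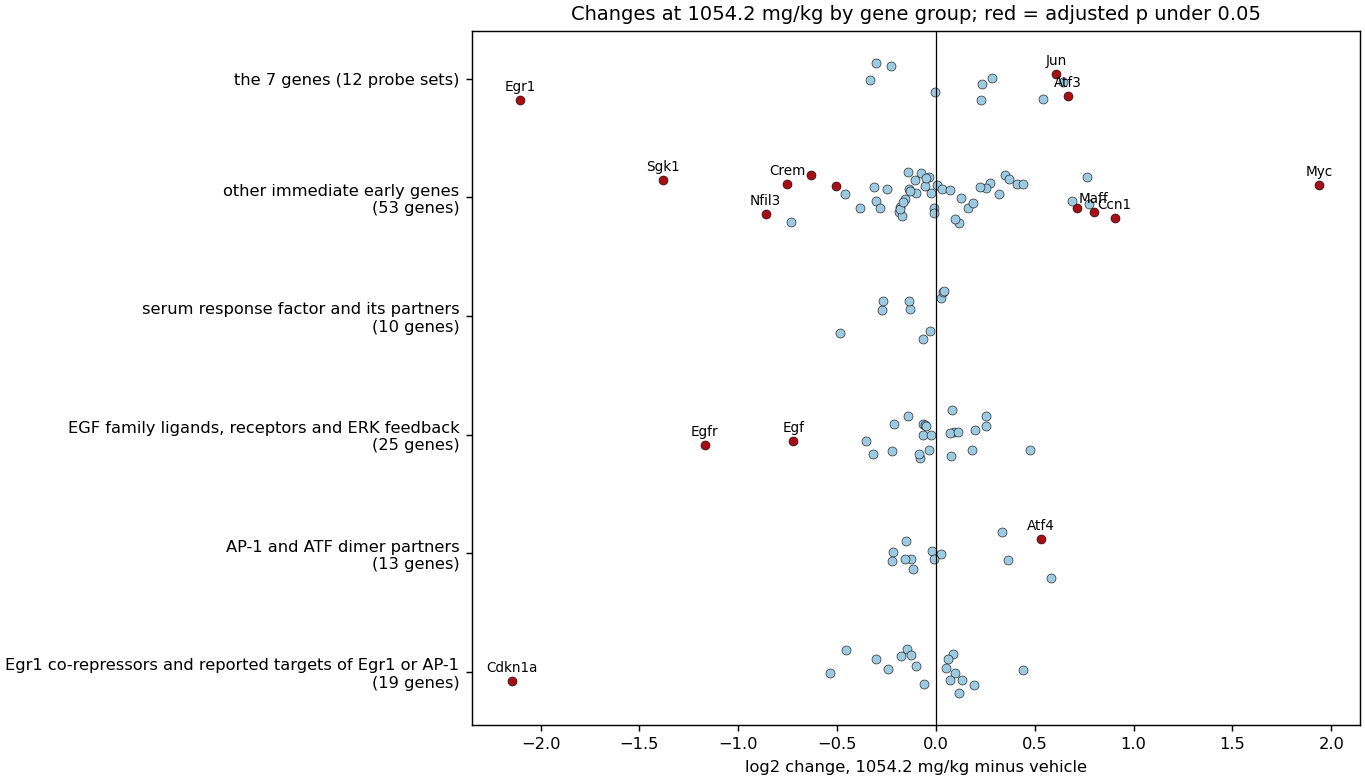
Log2 change at 1054.2 mg/kg minus vehicle (x axis) for each probe set of the 7 genes and each gene of 5 pathway lists (rows; vertical scatter carries no value); red points passed the adjusted threshold of 0.05. Egr1 (-2.10), Cdkn1a (-2.14), Sgk1 (-1.38) and Egfr (-1.17) lie at the left and Myc (1.94) at the right, with most genes of each list near 0.

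Markers of liver cell types were read on the same arrays. Hepatocyte markers were among the brightest probe sets and 0 of 14 were called by limma at 1054.2 mg/kg, with the largest change in Ass1 (-0.49, adjusted p = 0.22). Yet 12 of these 14 changes were below 0, with a median of -0.10. The mean log2 level of the hepatocyte list lay between 13.87 and 13.92 at 1054.2 mg/kg, below its range of 13.98 to 14.03 in vehicle rats. Its highest value was 13.97 at 66, 13.92 at 132 and 263.6, and 13.95 at 527.1 mg/kg. Of 11 Kupffer cell and macrophage markers, 6 were lower, against 1.44% of all probe sets, and all 11 changes were below 0, with a median of -0.54. None of those 6 passed without 1054.2 mg/kg replicate 3. Over the 8 leave-one-out fits, C1qa lost its call in 7, C1qc in 6, C1qb and Csf1r in 5 each, and Clec4f and Cd5l in 1 each. The mean log2 level of the Kupffer cell and macrophage list lay between 9.47 and 9.58 in rats at 1054.2 mg/kg and between 9.56 and 9.86 at 527.1 mg/kg, against 9.90 to 10.32 in vehicle rats. At each lower dose 0 of the 11 were called by limma, and all 11 changes were below 0, with medians of -0.21 at 66, -0.58 at 132, -0.28 at 263.6 and -0.34 at 527.1 mg/kg. On dose rank, 7 of the 11 slopes were called downward, against 2.08% of all probe sets. Of the 14 hepatocyte markers 0 had a called slope.

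Of 15 stellate cell and fibroblast markers 5 were lower at 1054.2 mg/kg (median -0.33, and -0.14, -0.25, -0.42 and -0.28 with 0 called at the lower doses, from 66 to 527.1 mg/kg), and the list mean was 7.41 to 7.54, against 7.56 to 7.94 in vehicle rats. Over all probe sets 1.44% were called lower and 1.86% higher at 1054.2 mg/kg. Of the 5 stellate cell and fibroblast markers called, Lrat, Pdgfrb, Col3a1 and Ecm1 did not pass without 1054.2 mg/kg replicate 3. Reln did not pass without replicate 2. Ecm1 lost its call in 8 of the 8 leave-one-out fits, Lrat in 7, Col3a1 in 2, and Pdgfrb and Reln in 1 each. The 2 other Pdgfrb probe sets (0.02 and -0.25) and the other Reln probe set (-0.5) were not called. On dose rank, 6 of the 15 stellate cell and fibroblast markers and 2 of the 12 endothelial markers were called downward, against 2.08% of all probe sets. Of 12 endothelial markers 2 were lower at 1054.2 mg/kg, Pecam1 (-0.51) and Gpr182 (-0.53), and both calls were lost without 1054.2 mg/kg replicate 2. The other Gpr182 probe set (-0.36) was not called at that dose. From 66 to 1054.2 mg/kg, in order of dose, the medians of the 12 endothelial markers were -0.34, -0.25, -0.38, -0.29 and -0.35. At 527.1 mg/kg 1 of them was called lower (Gpr182, limma adjusted p = 0.0286), against 0.483% of all probe sets. That call was lost in 6 of 8 leave-one-out fits (up to 0.132). At 1054.2 mg/kg the list mean was 8.62 to 8.90, against 8.89 to 9.21 in vehicle rats. Of 6 cholangiocyte markers 1 was higher at 1054.2 mg/kg, Epcam (0.65 ± 0.12, adjusted p = 0.00448). Epcam was also called higher at 527.1 mg/kg (0.55, limma adjusted p = 0.0237), where 1.68% of all probe sets were called. Its call at 527.1 mg/kg was lost in 4 of 8 leave-one-out fits (up to 0.113). No neutrophil or monocyte (9), lymphocyte (11) or erythroid (2) marker was called by limma at 1054.2 mg/kg, with the largest changes in Cd14 (0.62, adjusted p = 0.123), Jchain (-0.38, adjusted p = 0.595) and Alas2 (-0.91, adjusted p = 0.0635). At 263.6 mg/kg the neutrophil gene S100a9 was higher (1.46 ± 0.30, adjusted p = 0.0339), a call lost without vehicle replicates 1, 2, 3 or 4 or 263.6 mg/kg replicates 1 or 2 (up to 0.166). The part of these shifts in the levels of the 7 genes was not tested.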

How the data were processed

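The authors deposited log2 intensities, and the submitters' processing notes name RMA without a version. Which arrays were normalised together, and the log base, is not given in the sources used here; base 2 was taken from the range of values. Array medians lay between 6.31 and 6.41, and r between arrays between 0.978 and 0.996. The number of arrays limits the precision.

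After 57 Affymetrix controls were left out of 31099 probe sets, 31042 were tested in limma 3.58.1 (R 4.3.3) with 1 mean per dose group over all 20 arrays, moderated variances, two-sided tests and Benjamini-Hochberg adjustment over all probe sets at 0.05. A value "called" passed that threshold. Gene names came from the annotation of the array. All 12 member probe sets matched RefSeq on GRCr8. Intervals are 95%. Limma p-values weigh a difference of means, or a slope, against the moderated spread between these rats, and permutation p-values come from rearranging the rats.

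The members and lists were chosen with earlier results of these data known. From each of 13 lists, up to 6 called genes at 1054.2 mg/kg by size were named, or the largest change where none was called, and for likeness the 3 genes with the highest r (6 for Egr1). Csrnp1 at 527.1 mg/kg and in the slope, and S100a9 at 263.6 mg/kg, were named after their values were seen. So were Fhl2, Hgf, Mafg, Pdgfa and Nab2 in the slope. Alternatives were dim probe sets left out, median centring, repeated quantile normalization, a replicate block, fits of 2 groups, a slope on mg/kg and each rat left out.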

Additional observations from a re-analysis of the deposited data

How the results depend on the processing

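Egr1 kept its calls at 527.1 and 1054.2 mg/kg under every alternative, including the replicate block. With each rat left out its change ran from -2.39 to -1.96 at 527.1 mg/kg (adjusted p 0.00396 to 0.043) and from -2.43 to -1.92 at 1054.2 mg/kg (0.00201 to 0.0282). Of 1184 alternatives for 84 single values of the 7 genes, 25 lost a call, 4 gained one and 61 turned the sign of a value that was not called; the 7 called values turned in 0 of 125. The causes were not tested.

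The numbers of called probe sets moved more. At 66 mg/kg there were 2, and 11 with 2 groups alone (leave-one-out 0 to 3). At 132 mg/kg there were 21, 46 without dim probe sets and 50 after quantile normalization (6 to 1482, the highest without 132 mg/kg replicate 3). At 263.6 mg/kg there were 133, 75 after centring, 221 after quantile normalization and 78 with the replicate block (38 to 193). At 527.1 mg/kg there were 520, 283 with the replicate block and 826 with 2 groups alone (212 to 509), and at 1054.2 mg/kg 1024 and 614 (replicate block; 405 to 1069). Between the 2 highest doses there were 4, 2 without dim probe sets, 1 with the block and 0 with 2 groups alone (1 to 8). The slope had 1569, 930 with the block and 879 on mg/kg (1092 to 1919).

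Of the 12 member probe sets, 3 were called at 1054.2 mg/kg (leave-one-out 1 to 4). The slope had 3, and 1 with the replicate block (1 to 4). With the block, the slope's adjusted p was 0.115 for Jun 1369788_s_at and 0.0591 for Atf3, and the change at 1054.2 mg/kg had 0.157 for Atf3, 0.0839 for Maff, 0.0538 for Sgk1 and 0.0821 for Nfil3. Leaving out rats 1 at a time took the Jun slope to between 0.0501 and 0.132 where it was lost, and quantile normalization to 0.0579. Without 1054.2 mg/kg replicate 1, the slopes of Ier2 (0.0425) and Klf6 1388986_at (0.0448) passed. Same-numbered rats of different groups correlated at a mean r of 0.045, other pairs at -0.017, and 7 of 18 arrays correlated best with their own number. The ranges of r, -0.35 to 0.47 and -0.59 to 0.38, overlapped widely, so this check cannot exclude a pairing by number. The main fits used no pairing. Centring moved the share of called probe sets that were higher at 132 mg/kg to 69.2%, against 52.4% without it.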
